A study of Mus musculus with 20 samples.

Results

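The genes described here encode the proteins of the cytosolic ribosome. They were chosen by symbol alone: a gene was a member if its current symbol was that of a large subunit protein (Rpl), a small subunit protein (Rps), a stalk protein (Rplp0, Rplp1, Rplp2) or Rpsa, and the Rps6k kinases were left out. This gave 71 of the 17097 genes named on the array, measured by 134 probe sets. There were 38 large subunit genes, 24 small subunit genes, 3 stalk genes and 6 paralogs whose symbols end in l or l1. Each gene was represented by its probe set with the highest mean over all arrays, and 34 members had several probe sets. The other 14 genes of the gene table that fit the same pattern, among them Rpl5 and Rps27a, were not analysed here.

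The study asked which transcripts change when cells without the catalytic subunits of AMP-activated protein kinase, the cell's energy sensor, are exposed to AICAR, an adenosine analog used to activate that kinase. Total RNA came from SV40-immortalized mouse embryonic fibroblasts in which Ampkα1 and Ampkα2 were both knocked out, in every group. Cells in 1 mM AICAR were collected at 1, 2, 4, 12 and 24 h (3 arrays each) and at 8 h (2 arrays), and 3 control arrays at 0 h had no AICAR. The controls at 0 h were shared by all 6 comparisons with them, and cells longer in AICAR were also longer in culture, so the agent and the time cannot be told apart. The labels do not say whether replicates were separate cultures, so the p-values cover only the spread among the arrays of a group, which may be technical. Precision is limited by how few arrays there are. No cells with AMPK were analysed here, and the labels do not say whether the cells were 1 clone.

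The cytosolic ribosome joins ribosomal RNA with a set of proteins made in about equal numbers, and growing cells give a large share of their transcription and translation to it. Many mRNAs of ribosomal proteins start with a run of pyrimidines, the 5′ terminal oligopyrimidine (TOP) tract, through which the growth kinase mTORC1 and the RNA-binding protein LARP1 control their translation and stability. AMPK restrains mTORC1 in normal cells. The arrays measured the amount of RNA and not its translation, and in bulk RNA fewer expressing cells and less RNA per cell cannot be told apart.

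Promoter windows are printed for 7 of the members that carry differences described further on, some of them only in their other probe sets. Further members with such differences, among them Rpl7l1, Rps27l and Rps24, are not printed, so the 7 do not stand for all of them. Whether a run goes with a difference was not tested. Each window, from RefSeq on GRCm38.p6, runs from 30 bases before the annotated start to 20 bases that begin with it, on the strand of the gene, and capitals mark a pyrimidine run near the start.
Rps6: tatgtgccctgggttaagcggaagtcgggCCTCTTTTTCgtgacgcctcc
Rps10: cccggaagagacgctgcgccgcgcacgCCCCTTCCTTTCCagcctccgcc
Rpl15: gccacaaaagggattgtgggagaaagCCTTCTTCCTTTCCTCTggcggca
Rpl14: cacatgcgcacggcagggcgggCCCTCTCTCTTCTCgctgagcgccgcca
Rps15a: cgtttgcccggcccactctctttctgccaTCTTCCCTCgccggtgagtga
Rpl22l1: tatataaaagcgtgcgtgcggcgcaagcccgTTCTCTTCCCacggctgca
Rpl31: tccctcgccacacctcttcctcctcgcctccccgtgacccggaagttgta
These are chr4:86857348-86857397 (minus strand) for Rps6, chr17:27635225-27635274 (minus) for Rps10, chr14:18270967-18271016 (minus) for Rpl15, chr9:120571487-120571536 (plus) for Rpl14, chr7:118116128-118116177 (minus) for Rps15a, chr3:28805478-28805527 (plus) for Rpl22l1 and chr1:39367821-39367870 (plus) for Rpl31. The search was for at least 8 bases in a row made only of C and T, between 10 bases before the start and 20 bases after it, on both strands. On the strand of the gene such a run was present at 21 of 68 starts of the 57 members with a promoter entry (30.9%), against 11.2% of 32851 starts of all genes. On the opposite strand it was present at 4.41% of the members' starts and 13.3% of all starts. The window of Rpl31 holds no run of that length within these bounds. A run is a feature of the letters and not a measured start site.

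Nearly all members gave signals near the upper end of the arrays' range. On the log2 scale the median control mean of the 71 members was 12.96, against an array median between 5.16 and 5.32 over the 20 arrays and a highest value of any probe set of 13.46. The control mean was at least 12 for 65 members and at least 13 for 30, with Rpl23a, a large subunit protein, highest at 13.36. Signals of different probe sets depend on their probes, so these values place the members on the scale and do not rank their RNA. For 23 members the highest-mean probe set is named _x_ or _s_, which marks probes that can also match other transcripts, and ribosomal protein genes have many near-identical processed pseudogenes, so their signals are not certain to come from the named gene alone. Rpl3l, the muscle paralog of Rpl3 (4.06), and Rpl39l, the testis paralog of Rpl39 (4.43), lay below the filter on low signals (4.81) and below the 95th percentile of nonspecific control probe sets (5.08). The other 69 members were tested, in a single fit over all 12944 genes that passed the filter, with adjusted p under 0.05 as the threshold.

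Replicate 3 at 1 h stood apart from the other 19 arrays in its brightest values. Its median over the 71 members was 12.60, against 12.92 or more on the other arrays, and its highest value was 13.15, against 13.40 to 13.46. The median difference of the members between 1 h and 0 h was -0.11 with this array and 0.01 without it. Genes outside the set with a control mean of at least 12 (155 genes) had a median of -0.10 at 1 h with it. The counts of members called against 0 h were the same with and without this array at all 6 times.

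**Figure D1:**
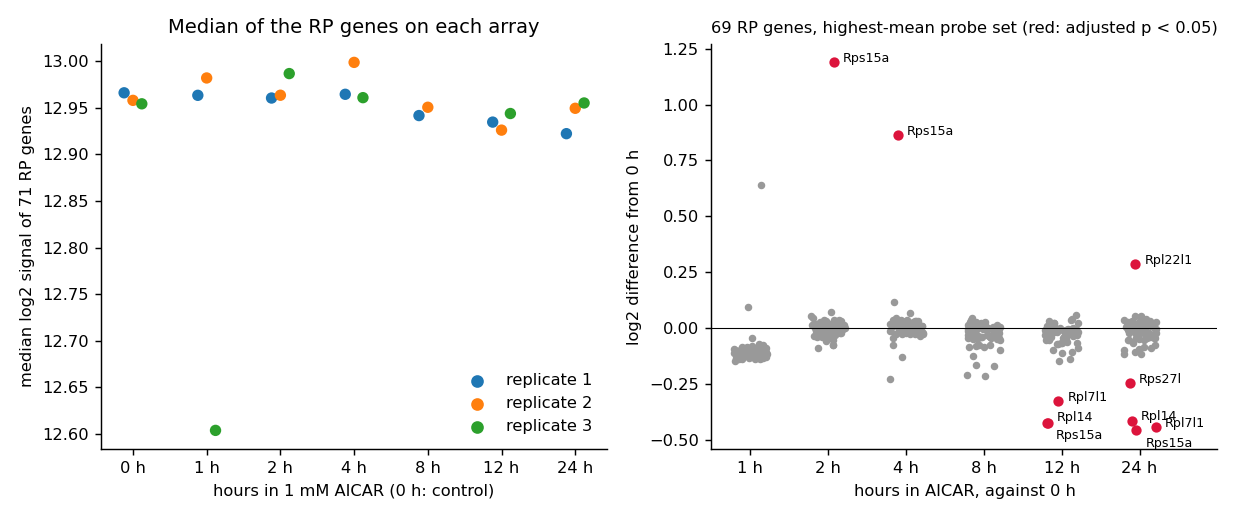
Left, the median log2 signal of the 71 ribosomal protein genes on each array (points, coloured by replicate) by hours in AICAR, with 0 h as the control. Right, the log2 difference of each of 69 tested genes from 0 h at each time, red where limma's adjusted p was under 0.05. Replicate 3 at 1 h lies at 12.60 and the others at 12.92 or above. Most genes lie close to 0 at every time, and the few red points belong to Rps15a, Rpl14 and 3 paralogs.

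Few ribosomal protein genes passed the test at any time. At 1 h 0 of 69 members were called, against 0.479% of all genes tested. At 2 h Rps15a alone rose and 0 members fell, beside 1.47% of all genes called (0.471% higher). At 4 h it was again Rps15a alone that rose, beside 12.1% of all genes called (5.18% higher). At 8 h 0 members were called, against 10.3% of all genes. At 12 h 3 members fell and 0 rose, namely Rpl14, Rps15a and Rpl7l1, beside 23.7% of all genes called (8.88% lower). At 24 h 1 member rose, Rpl22l1, and 4 fell, Rps15a, Rpl7l1, Rpl14 and Rps27l, while 40.4% of all genes were called (25.8% higher and 14.6% lower). With limma's unadjusted p under 0.05 the counts at 1, 2, 4, 8, 12 and 24 h were 1, 1, 2, 0, 3 and 5. The share of all genes under that unadjusted threshold is not given here, so these counts have no background to be read against. The median difference of the 69 members lay between -0.03 and 0.01 from 2 h to 24 h, against 0.00 to 0.01 for all genes tested.

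Members were also split at a control mean of 12, a level chosen after the values were seen. Of the 65 tested members at or above it 1, Rps27l, passed limma's test at 24 h and 0 did at the other 5 times, with or without replicate 3 at 1 h. Their differences at 24 h lay between -0.25 (Rps27l) and 0.06 (Rps29), and the 95% intervals of those differences between -0.40 and 0.22. The 4 tested members below that level, Rps15a, Rpl14, Rpl7l1 and Rpl22l1, were all called at 24 h, beside 40.4% of all genes. Of the 155 other genes with a control mean of at least 12, 29 were called at 24 h (18.7%), 6 of them higher and 23 lower, and 52 were called without replicate 3 at 1 h (33.5%, beside 41.3% of all genes). At a control mean of at least 12.5, 0 of 58 members were called with or without that array, and of the other genes 6 of 58 (10.3%) with it and 17 (29.3%) without it. At 13 or above, 0 of 30 members were called either way, and of the other genes 0 of 14 (0.00%) with that array and 1 (7.14%) without it. Whether members and other genes of this brightness differ was not tested, nor was how far the top of the scale narrows a difference in RNA.

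Arrays that do not overlap were also counted, whatever the test. At 24 h all arrays of 21 members lay below all controls and those of 7 members above them, beside 20% and 30% of all genes tested. At 12 h the counts were 23 members below and 3 above, beside 15.8% and 20.7% of all genes. Most of these differences are small and did not pass the test.

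The 38 large subunit proteins belong to the subunit that joins amino acids, and other proteins of that subunit are not among them. Of their genes 1 was called at 24 h, Rpl14, beside 40.4% of all genes, and the median difference of the 38 was -0.01. Rpl11, which with Rpl5 and 5S RNA binds Mdm2 when ribosome assembly fails, gave 12.91, 12.93 and 12.93 at 24 h, against 12.93, 12.96 and 12.95 at 0 h. Rpl10, a late-joining subunit protein, gave 13.03, 13.05 and 13.04 at 24 h, against 13.03, 13.04 and 13.02 at 0 h. Rpl13a, part of an interferon-responsive translation silencing complex in human cells, averaged 12.43 ± 0.01 at 24 h and 12.45 ± 0.03 at 0 h (SD, n = 3 each). The differences of these 3 genes, -0.03, 0.01 and -0.02, did not pass the test.

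Rpl14, a large subunit protein with a single probe set here, fell late. Its control signals lay well below the members' median control mean of 12.96, and its fall has no check by another probe set. Its log2 signals were 9.01, 8.90 and 8.81 at 0 h, 9.07, 9.01 and 8.93 at 1 h, 8.99, 9.04 and 8.90 at 2 h, 8.99, 8.80 and 8.79 at 4 h, 8.66 and 8.72 at 8 h, 8.55, 8.59 and 8.30 at 12 h, and 8.67, 8.52 and 8.28 at 24 h. All arrays from 8 h on lay below the 3 controls, and the earlier ones overlapped them. The difference from 0 h was -0.42 ± 0.10 at 12 h (SE; limma adjusted p = 0.00389) and -0.42 ± 0.10 at 24 h (adjusted p = 0.00208), a 1.34-fold lower signal at both times.

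The 24 small subunit genes encode proteins of the subunit that holds and decodes the mRNA, though not all of them. Of these 24 genes 1 was called at 24 h, Rps15a, beside 40.4% of all genes, and their median difference was -0.00. Rps6, the substrate of the S6 kinases, gave 13.30, 13.24 and 13.30 at 24 h, against 13.31, 13.31 and 13.28 at 0 h. Rps19, mutated in Diamond-Blackfan anaemia, averaged 12.73 ± 0.03 at 24 h and 12.71 ± 0.04 at 0 h. Rps4x, the X-linked form, averaged 13.16 ± 0.02 at 24 h and 13.11 ± 0.01 at 0 h. Rpsa, also known as a laminin receptor, averaged 12.68 ± 0.07 at 24 h and 12.80 ± 0.03 at 0 h (SD, n = 3 each). The arrays of Rps4x at 24 h lay above all controls, and those of Rpsa lay below them, but none of these 4 genes passed the test.

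Rps15a gave the widest change over time of the members tested, on a weak signal. Its log2 signals were 5.89, 5.70 and 5.49 at 0 h, 6.40, 6.45 and 6.14 at 1 h, 7.0, 6.91 and 6.73 at 2 h, 6.88, 6.18 and 6.60 at 4 h, 5.52 and 5.45 at 8 h, 5.31, 5.13 and 5.37 at 12 h, and 5.29, 5.14 and 5.27 at 24 h. The arrays at 1, 2 and 4 h lay above all controls, those at 8 h overlapped the lowest control, and those at 12 and 24 h lay below all controls. The difference from 0 h was 0.64 ± 0.14 at 1 h (SE; limma adjusted p = 0.0540), 1.19 ± 0.14 at 2 h (adjusted p = 0.000203; 2.28-fold) and 0.86 ± 0.14 at 4 h (adjusted p = 0.000558), then -0.21 at 8 h, -0.42 at 12 h (adjusted p = 0.0370) and -0.46 at 24 h (adjusted p = 0.0145). The signals at 12 and 24 h, between 5.13 and 5.37, lay just above the 95th percentile of nonspecific control probe sets (5.08). No other probe set carries this symbol alone, so the change has no check by another probe set. The call at 12 h was lost when the arrays were centred on their medians (-0.42) or on the members (-0.40), without control replicate 1 or 2 or without replicate 1 or 2 at 12 h, and the call at 24 h without control replicate 1 (-0.36) or replicate 2 at 24 h (-0.41).

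The 3 stalk proteins Rplp0, Rplp1 and Rplp2 recruit elongation factors to the ribosome. Of them 0 were called at any time by limma, beside 40.4% of all genes at 24 h. Their differences at 24 h lay between -0.02 and -0.00. Rplp0 gave 13.18, 13.24 and 13.22 at 24 h, against 13.21, 13.22 and 13.25 at 0 h, and the groups overlapped.

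Of the 4 paralogs tested, 1 rose and 2 fell at 24 h, beside 25.8% and 14.6% of all genes. Among the other 65 members tested there were 0 rises and 2 falls. Whether paralogs and other members differ was not tested. Rpl22l1, which can stand in for Rpl22 in the large subunit, gave 11.90, 12.20 and 12.15 at 24 h, against 11.77, 11.79 and 11.83 at 0 h. All 3 arrays lay above the controls, by 0.29 ± 0.10 on average (SE; limma adjusted p = 0.0262; 1.22-fold), but the call was lost without control replicate 1 or 2 and without replicate 2 (0.23) or 3 (0.25) at 24 h. At the earlier times its mean lay between 11.76 and 11.91. Rpl22 itself gave 12.04, 12.09 and 12.14 at 24 h, against 12.18, 12.21 and 12.15 at 0 h, all below the controls, and the difference of -0.09 did not pass the test.

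Rpl7l1, a nucleolar relative of Rpl7 found in assembling ribosomes of human cells, gave 10.57, 10.58 and 10.45 at 0 h, 10.11, 10.30 and 10.21 at 12 h, and 10.14, 10.13 and 9.99 at 24 h. Both late groups lay below all controls, with differences of -0.33 ± 0.08 at 12 h (SE; limma adjusted p = 0.00727) and -0.44 ± 0.08 at 24 h (adjusted p = 0.000265). Its 2 other probe sets fell as well at 24 h, by 0.62 and 0.78. Rps27l, a p53 target in human cells, gave 11.77, 11.84 and 11.81 at 24 h, against 12.04, 12.14 and 11.97 at 0 h, and the groups did not overlap. The difference was -0.25 ± 0.07 (SE; adjusted p = 0.0104), and -0.20 without control replicate 2, where the call was lost. The probe set of Rps27l is an _x_ set, its 2 other probe sets differed by -0.19 and -0.17 and did not pass, though both did without replicate 3 at 1 h, and the sequence of Rps27l is close to that of Rps27. Rpl36al, close to Rpl36a, differed by -0.12 at 24 h and did not pass.

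**Figure D2:**
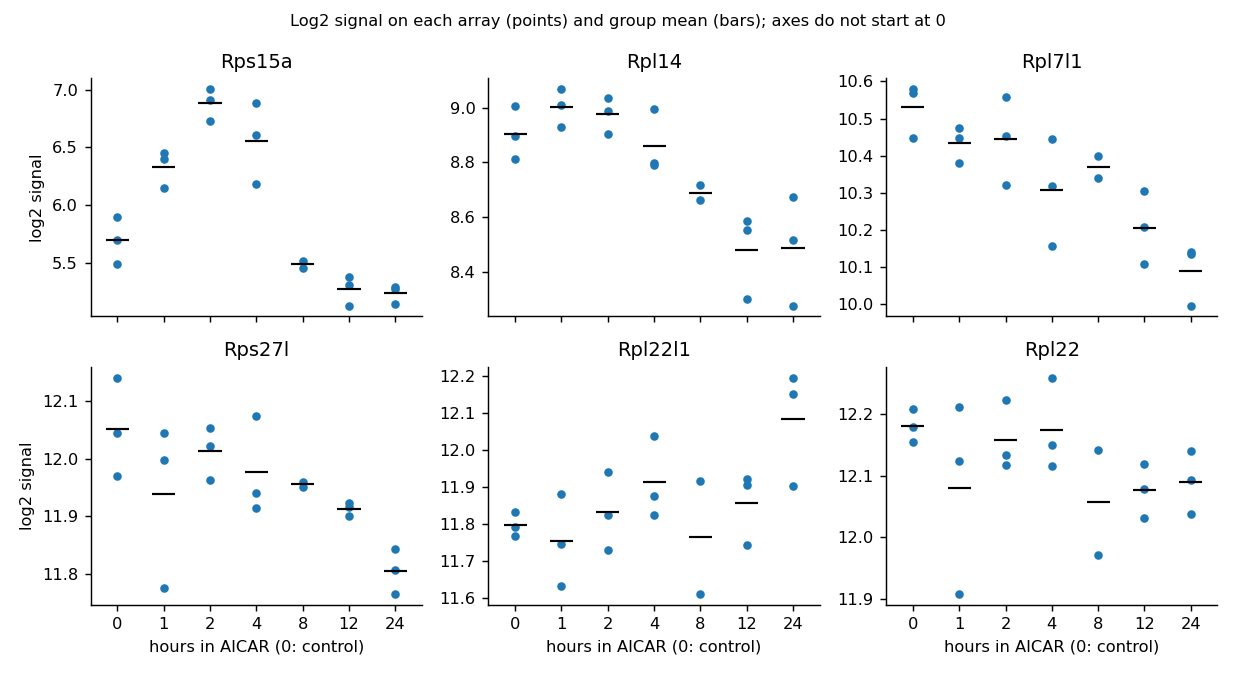
Log2 signal on each array (points) with the group mean (bars) by hours in AICAR for Rps15a, Rpl14, Rpl7l1, Rps27l, Rpl22l1 and Rpl22, with 0 h as the control. The times are evenly spaced and the axes do not start at 0. Rps15a is highest at 2 h and lowest at 12 and 24 h, Rpl14, Rpl7l1 and Rps27l are lowest late, and Rpl22l1 is highest at 24 h.

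A comparison within the AICAR arrays, without the controls, set the mean of 8, 12 and 24 h against the mean of 1, 2 and 4 h. Of the 69 members 3 fell and 0 rose, beside 43.2% of all genes called (28.9% higher and 14.2% lower). These were Rps15a (-1.26 ± 0.09, SE; limma adjusted p = 3.28e-09), Rpl14 (-0.39 ± 0.06; adjusted p = 2.73e-05) and Rpl7l1 (-0.17 ± 0.05; adjusted p = 0.00817). Without replicate 3 at 1 h Rps27l was called too (-0.11 ± 0.04; adjusted p = 0.0204; 42.1% of all genes). Between 24 h and 12 h 0 members were called by limma, beside 19.9% of all genes. At an unadjusted p under 0.05 there was 1 member, and the share of all genes at that threshold is not given here. The F test over all times called 3 members (48.4% of all genes), and 4 without replicate 3 at 1 h (48.5% of all genes).

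The members' other probe sets gave a different picture. Besides the highest-mean probe sets there were 63, of which 59 passed the filter and were tested in a fit of all 20458 probe sets with a single symbol that passed. Among the 59, 0 fell at 1 h, beside 0.303% of all probe sets, and 0 at 2 h, beside 0.665%. Falls numbered 2 at 4 h, beside 5.45% of all probe sets, and 9 at 8 h, beside 2.88%. They numbered 18 at 12 h, beside 8.95%, and 16 at 24 h, beside 14.8%. In late minus early 20 fell and 1 rose, beside 15.5% and 24.4%. Higher calls numbered 1 at 24 h, a probe set of Rpl13 (0.17 ± 0.05, SE, with 22.6% of all probe sets called higher), which was called in 12 of 28 settings tried, and 0 at the other times.

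Most of the falls were in the dimmer probe sets. A split at 2 log2 units below the highest-mean probe set of the same gene, chosen after the values were seen, separated 27 probe sets of 21 genes from 36 closer ones. The nearest to the split were Rpl13 and Rpl37 outside it (1.59 and 1.58 below) and Rps21 inside it (2.28 below). Of the 27, 23 probe sets of 20 genes were tested. Of these 9 fell at 8 h, 17 at 12 h and 15 at 24 h, beside 2.88%, 8.95% and 14.8% of all probe sets. Their median difference was -0.64 at 24 h, and 0 rose. The share among all genes' probe sets at least 2 below their highest is not given for these changes. Of the 36 closer ones 1 fell and 1 rose at 24 h, beside 14.8% and 22.6% of all probe sets, with a median of -0.02. Without replicate 3 at 1 h, where 15.1% of all probe sets fell at 24 h, 4 of the closer ones fell, a probe set each of Rpl7l1 and Rpl41 and both of Rps27l, and again 15 of the dimmer ones. In late minus early 1 of the closer ones and 19 of the dimmer ones fell, beside 15.5% of all probe sets. Without that array 5 and 18 fell, beside 16.3%. What the dimmer probe sets match is stated in none of the files or labels and was not tested.

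Rps20, a small subunit protein, shows the contrast. Its highest-mean probe set averaged 13.34 ± 0.02 at 24 h and 13.31 ± 0.02 at 0 h (SD, n = 3 each). Another, about 5.5 log2 units dimmer, gave 8.51, 8.37 and 8.30 at 0 h, 8.13, 8.21 and 7.88 at 1 h, 8.17, 8.39 and 8.26 at 2 h, 7.87, 7.80 and 7.95 at 4 h, 7.58 and 7.67 at 8 h, 6.84, 7.73 and 7.36 at 12 h, and 6.87, 6.88 and 6.36 at 24 h. The arrays at 1 h and every array from 4 h on lay below all controls, and those at 2 h overlapped them. The difference was -1.69 ± 0.17 at 24 h (SE; limma adjusted p = 1.00e-06; 3.22-fold lower), and a further probe set of similar brightness fell by 1.34 ± 0.14 (2.54-fold).

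Rps24, another small subunit protein, gave 7.71, 7.77 and 7.25 at 24 h with a dimmer probe set, against 9.03, 8.63 and 8.59 at 0 h, and the groups did not overlap (-1.17 ± 0.17, SE; limma adjusted p = 3.44e-05). Its highest-mean probe set averaged 13.20 ± 0.04 at 24 h and 13.22 ± 0.02 at 0 h (SD, n = 3 each). Rpl41, the smallest ribosomal protein, gave 6.51, 6.57 and 6.49 at 24 h, against 7.87, 7.69 and 7.41 at 0 h, and fell by 1.13 ± 0.17 with this probe set and by 1.02 ± 0.15 with another of similar brightness.

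Rpl31, a large subunit protein near the exit of the peptide tunnel, gave 8.84, 8.66 and 8.46 at 24 h, against 9.61, 9.55 and 9.56 at 0 h, a 1.89-fold lower signal (-0.92 ± 0.09, SE; limma adjusted p = 5.99e-07). Its highest-mean probe set, by contrast, averaged 13.09 ± 0.01 at 24 h and 13.12 ± 0.01 at 0 h (SD, n = 3 each). Rps6 gave 9.38, 9.31 and 8.94 at 24 h with its middle probe set, against 9.91, 9.84 and 9.80 at 0 h (-0.64 ± 0.09), and its dimmest lay below the filter. Rpl15 gave 9.27, 9.12 and 9.04 at 24 h, against 9.98, 9.95 and 9.90 at 0 h (-0.80 ± 0.08). In all 3 the late arrays lay below every control.

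The remaining dimmer probe sets called at 24 h belonged to Rpl37a (-1.05), Rpl37 (-0.82), Rpl7l1 (-0.78), Rps10 (-0.75), Rpl21 (-0.53), Rpl11 (-0.48, on a control signal of 5.55) and Rpl17 (-0.44). The 15 probe sets came from 13 genes of both subunits, and 3 of them, of Rpl37a, Rpl37 and Rpl41, are _x_ sets. Each passed in every setting it was tested in, 28 settings for 14 of them and 27 for that of Rpl11. Rps13 (-0.26), Rpl22 (-0.26), Rpl9 (-0.20), a second dim set of Rps24 (-0.18), Rpl24 (-0.14), Rpl23 (-0.15), Rps21 (-0.14) and Rpl39 (-0.00) did not pass at 24 h. Those of Rps24, Rpl39 and Rpl9 lie 8.40, 7.96 and 7.63 log2 units below the highest-mean probe set of their gene, further than that of Rpl11 (7.56).

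**Figure D3:**
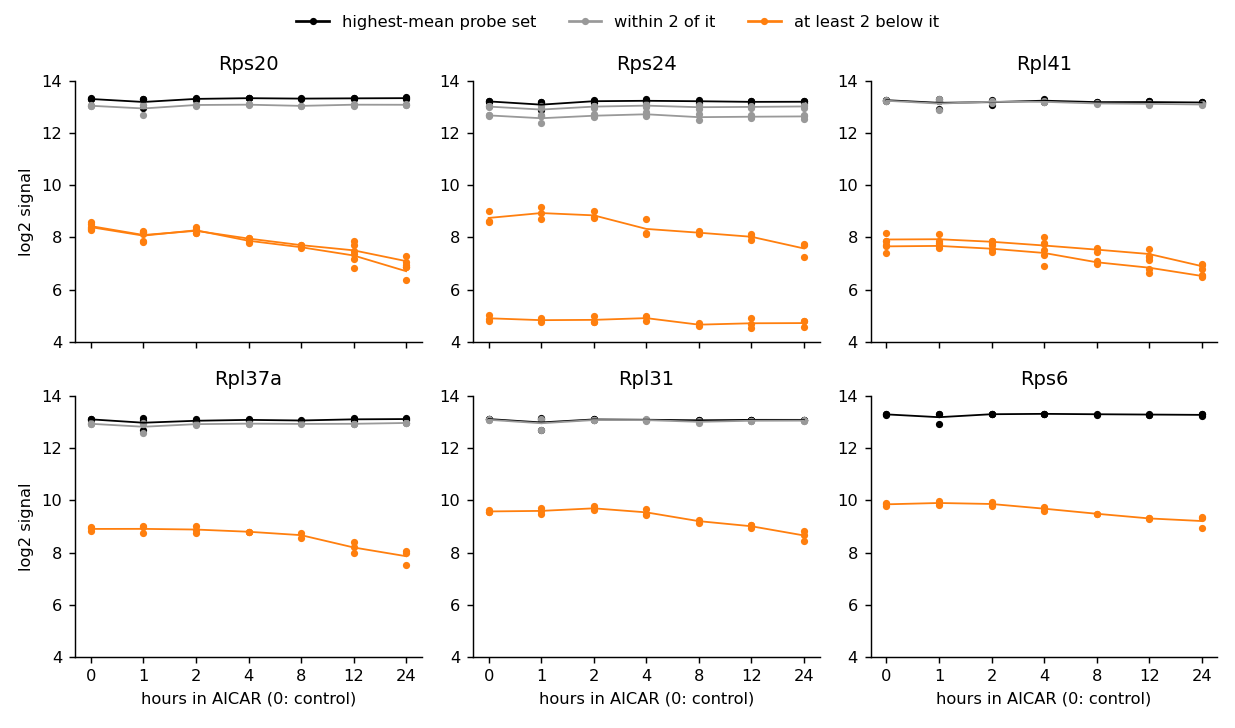
Log2 signal of each probe set of Rps20, Rps24, Rpl41, Rpl37a, Rpl31 and Rps6 that passed the filter, on each array (points) with lines through the group means, by hours in AICAR with 0 h as the control and the times evenly spaced. Black marks the highest-mean probe set, grey those within 2 log2 units of it and orange those at least 2 below. The black and grey lines end within 0.14 of their start, and all orange lines but the lowest of Rps24 end 0.64 to 1.69 below it.

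The difference between probe sets of a gene was tested directly. For each of 7511 probe sets of all genes, the change was set against that of the highest-mean probe set of the same gene. Of the 59 member pairs 12 differed downward at 12 h (8.49% of all pairs), 15 at 24 h (15.4%) and 17 in late minus early (19.4%), each of them with a dimmer probe set, of which there were 23. Among all genes' probe sets at least 2 units below their highest, the shares were 11%, 20.8% and 26%, with a median of -0.12 at 24 h, against -0.52 for the members' 23. For Rps20 the difference of changes at 24 h was -1.72 ± 0.17 (SE; limma adjusted p = 2.98e-06) and for Rps6 it was -0.62 ± 0.11 (adjusted p = 0.000438).

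**Figure D4:**
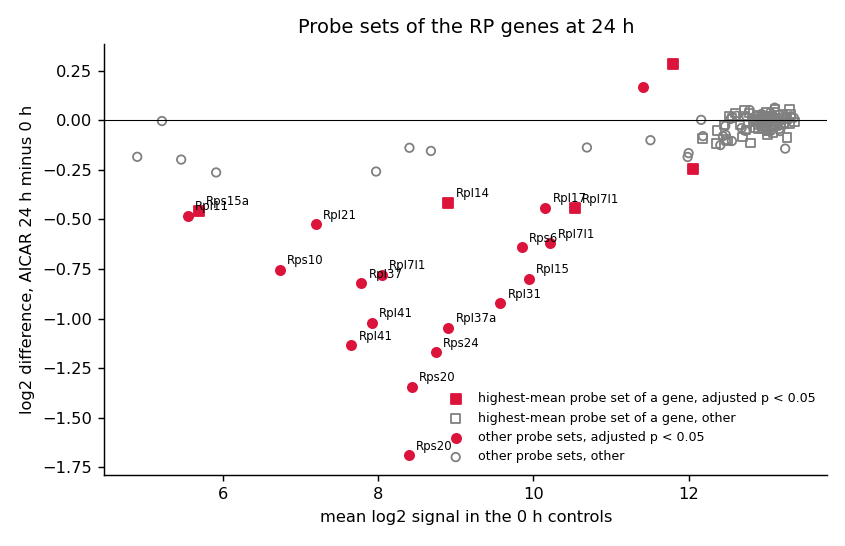
Log2 difference at 24 h from 0 h against the mean log2 signal in the 0 h controls, for the probe sets of the ribosomal protein genes that passed the filter. Squares are the highest-mean probe sets and circles the others, and red marks adjusted p under 0.05. Most points lie at signals above 12 and close to 0, and all but 2 of the red points, Rpl22l1 at 0.29 and a probe set of Rpl13 at 0.17, lie below 0.

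At 24 h some genes around the ribosome differed by more than any of the 69 members did by their highest-mean probe sets. Among the members' dimmer probe sets the lowest difference at 24 h was -1.69. Of the fusion proteins with a ribosomal part, Fau, the precursor of Rps30, had a control signal of 12.90 and differed by 0.00 at 24 h. Of 20 tested translation factors and other TOP transcripts, 1 rose and 5 fell at 24 h, beside 40.4% of all genes called, with a median of -0.04. The host gene of small nucleolar RNAs Gas5, a TOP transcript that is degraded when translated, averaged 7.75 ± 0.24 at 24 h and 9.45 ± 0.28 at 0 h (SD, n = 3 each), and fell by 1.70 ± 0.19 (SE; limma adjusted p = 1.31e-06). Hnrnpa1, an RNA-binding protein, fell by 0.53, the translation initiation subunit gene Eif2s3x by 0.29, the nucleolar chaperone gene Npm1 by 0.23 and the ADP/ATP carrier gene Slc25a5 by 0.22, and the histone chaperone gene Nap1l1 rose by 0.20. The elongation factor genes Eef1a1 (0.04), Eef2 (-0.03) and Eef1b2 (0.07) and the poly(A)-binding protein gene Pabpc1 (-0.05) did not pass.

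Of 20 tested genes of mTORC1 and of TOP mRNA regulation, 1 rose and 7 fell at 24 h, beside 25.8% and 14.6% of all genes and 40.4% called in all, with a median of -0.17. Myc, a transcription factor that drives ribosome synthesis, fell by 1.23 ± 0.10 (SE; limma adjusted p = 4.08e-08), and the mTORC1 inhibitor gene Deptor by 0.78. Eif4ebp1 and Eif4ebp2, translation repressors that mTORC1 inactivates, fell by 0.69 and 0.33, and Larp1 by 0.36. Larp4 and Cnbp, other RNA-binding proteins, fell by 0.30 and 0.29, and Castor2, a paralog of the arginine sensor Castor1, rose by 0.55. Mtor itself differed by 0.16 and did not pass.

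Of 19 tested genes for chaperones of ribosomal proteins, the 5S particle and surveillance, 6 rose and 6 fell at 24 h, beside 25.8% and 14.6% of all genes. The factors that load the 5S particle, Rrs1 (-1.0 ± 0.07, SE; limma adjusted p = 8.07e-09) and Rpf2 (-0.81 ± 0.06; adjusted p = 9.74e-09), fell, as did the importin gene Ipo5 (-0.63), the small subunit assembly factor gene Ltv1 (-0.47), the p53 inhibitor gene Mdm4 (-0.37) and Bccip (-0.33), whose product escorts a ribosomal protein in yeast and human cells. Mdm2, the ligase that Rpl11 binds, rose by 0.58 ± 0.08, the cell cycle inhibitor gene Cdkn1a by 0.53, the collided-ribosome sensor gene Zfp598 by 0.43, the exportin gene Xpo1 by 0.23, Nap1l1, also counted above, by 0.20 and Ipo9 by 0.19. The list's median was -0.04.

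The fibroblast label was set against its markers. Vim (13.20), S100a4 (12.47) and Fn1 (11.75) had high control signals and Col5a1 (9.89), Col3a1 (8.42) and Col1a1 (7.48) lower ones, while Col1a2, Lum and Fap lay below the filter, so 9 of 12 markers passed it. Of these 9, 3 fell at 24 h and 0 rose, beside 14.6% and 25.8% of all genes: Fn1 by 0.30, Thy1 by 0.22 and Pdgfrb by 0.25. Control signals of Pdgfrb (5.87) and Thy1 (4.94) were weak, and that of Thy1 lay below the 95th percentile of nonspecific control probe sets (5.08). The mean log2 value over all 12 markers lay between 7.61 and 7.71 on the arrays at 24 h and between 7.69 and 7.74 at 0 h. Of the 6 macrophage markers Lyz2 and Ptprc lay below the filter, and of the 4 tested Cd68 alone rose at 24 h, by 1.08, while Csf1r (-0.21), Adgre1 (-0.00) and Cd14 (0.02) did not pass. The mean of the 6 lay between 5.02 and 5.2 at 24 h and between 4.92 and 4.96 at 0 h. Of the epithelial markers Krt8 and Cdh1 lay below the filter, and of the 3 tested Krt19 alone fell, with 9.54 at 24 h and 9.82 at 0 h on average. The part of other cells in these results was not tested.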

How the data were processed

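The values analysed are the authors' deposited table of log2 signals for 45141 probe sets on 20 arrays of the Affymetrix MG-430 PM strip. The log2 scale was read from the values. How they were background-corrected, summarised and normalized is not given in the sources at hand. The values were used as deposited and 104 control probe sets were left out. Genes were named where the platform annotation lists a single symbol (28898 probe sets), updated by gene identifier with the GRCm38.p6 gene table. The probe set with the highest mean stood for a gene, and genes with no group mean over the 40th percentile of all values (4.81) were not tested.

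limma 3.58.1 in R 4.3.3 (lmFit, eBayes) was fitted once over the 7 groups, with 13 residual degrees of freedom, two-sided tests, Benjamini-Hochberg adjustment over all 12944 genes and a threshold of 0.05. The same fit was made over 20458 probe sets and over 7511 within-gene differences. Standard errors and 95% intervals come from these fits. The code was tested on simulated data. Figures used Python 3.11.15 and matplotlib 3.10.9.

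The members and gene lists were chosen with earlier results of these data known. Members named were up to 6 rises and 6 falls past the threshold per comparison, every paralog, those below the filter, and Rps6, Rpl11, Rplp0, Rplp1, Rplp2, Rpsa, Rpl13a, Rps19, Rpl10 and Rps4x. Rpl22, the members with the lowest, highest or brightest values, the single probe sets and the genes of the lists named in the text were chosen after their values were seen. Alternatives were other normalizations, filters, probe set rules, variance models, the replicate number as a block, a stricter threshold, fits limited to 2 groups and each array left out in turn.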

Additional observations from a re-analysis of the deposited data

Results flagged for a closer look

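Over the times, 3 members changed differently late than early by a test of that difference itself, which set the mean of 8, 12 and 24 h against the mean of 1, 2 and 4 h. The difference was -1.26 for Rps15a (limma adjusted p = 3.28e-09), -0.39 for Rpl14 (adjusted p = 2.73e-05) and -0.17 for Rpl7l1 (adjusted p = 0.00817). By the same test 20 of the 59 other probe sets of the members were lower late than early and 1 was higher, beside 15.5% and 24.4% of all probe sets.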

How the results depend on the processing

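Of the counts and medians, 558 values under other settings stayed near those reported and 44 moved, and of the 13 results for named members 411 values stayed on the same side of the threshold, 18 lost the call and 0 changed sign. Which probe set stands for a gene moved the counts most. When all probe sets of a gene were averaged, 3 members were called at 8 h, 11 at 12 h, 14 at 24 h, 18 late minus early and 13 by the F test. Without _x_ or _s_ probe sets 2 members were called at 4 h (1 higher and 1 lower) and 2 at 8 h (0 higher and 2 lower). With that setting 9 were called at 12 h, 10 at 24 h, 9 late minus early, 2 between 24 h and 12 h and 9 by the F test. These settings bring in the dimmer probe sets. The share of all genes called is not given here for these settings or for those below. In the main fit it was 10.3% at 8 h, 23.7% at 12 h, 40.4% at 24 h, 43.2% late minus early and 48.4% by the F test. With array weights 1 member was called at 1 h, 5 at 4 h, 5 at 12 h, 1 between 24 h and 12 h and 5 by the F test. Quantile normalization gave 1 at 1 h, 2 at 4 h, 1 at 8 h and 5 by the F test, and a median of 0.0015 at 1 h, which was -0.0033 when centred on the members. A count of 1 at 1 h also came with centring on the members, the filter at the 60th percentile, the interquartile range covariate, trended robust variance and the compared groups alone. Trended robust variance gave 2 at 4 h and 5 by the F test, the interquartile range covariate 1 at 8 h and 1 between 24 h and 12 h, and an adjusted p under 0.01 2 at 24 h. The cause was not tested where none is named.

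Leaving out each array in turn gave 0 to 1 members at 1 h, 1 to 2 at 4 h, 2 to 3 at 12 h, 3 to 5 at 24 h, 3 to 4 late minus early and by the F test and 0 to 1 between 24 h and 12 h. The median at 1 h lay between -0.179 and 0.0106, the highest without replicate 3 at 1 h. The count at 24 h was 3 without control replicate 1, control replicate 2 or replicate 2 at 24 h. The other probe sets lower numbered 14 to 19 at 12 h and 16 to 19 at 24 h.

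Of 57 pairs of arrays with the same replicate number in different groups, 39 correlated above 0.1. Their median r was 0.32 and the lowest -0.46, while the median for pairs with different numbers was -0.17. These r do not compare the log2 signals as a whole, in which the arrays differ little. The numbers were not used as a block in the main fit, and whether they mark a batch was not tested. With the replicate block 1 member was called at 1 h, higher, and 1 at 8 h, lower. The block gave 2 at 4 h, 3 called at 12 h and 5 at 24 h, and 17 other probe sets were lower at 24 h.

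For 65 members the control mean is at least 12, near the highest value on the arrays, and Rps15a and the dim set of Rpl11 lie close to nonspecific signal. The dimmest sets of Rps24, Rpl39 and Rpl9 lie further below the highest-mean probe set of their gene than that of Rpl11 does.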
